A study of Homo sapiens with 24 samples.

Results

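What all-trans retinoic acid (ATRA) added to arsenic trioxide (ATO) in NB4 cells was read from 6 of the 24 libraries of the series: the 3 NB4 libraries labelled as the combination of both drugs and the 3 NB4 libraries labelled ATO, chosen by their labels and compared across all genes. NB4 is a line from an acute promyelocytic leukaemia (APL), and the labels give its genotype as WT, with no clone named. The 6 libraries share ATO and 48 h of treatment, and they differ by ATRA. The treatment notes give 1 µM for ATRA and 0.8 µM for ATO, and no separate doses for the combination. The other NB4 groups used beside them were ATRA alone (48 h) and untreated cells, whose time in culture is not given, and the other line was HL-60, an acute myeloid leukaemia line that is not APL, with ATO and ATO plus ATRA. Each group held 3 libraries. The labels call the replicate numbers batches and do not describe them as separate cultures. The p-values therefore cover no more than the spread among these libraries, which may be technical. The title of the series links a lowered DNA damage response to the toxicity of both drugs in APL cells. RNA was sequenced from bulk cultures, so fewer cells of a type and less RNA per cell cannot be told apart.

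APL cells carry a fusion of the PML and RARA genes. The fusion protein binds retinoic acid response elements, keeps them silent, and holds the cells at the promyelocyte stage. ATRA binds the RARA part of the fusion and turns those elements on, and the cells then mature towards neutrophils. Arsenic binds the PML part and leads to SUMO-dependent degradation of the fusion, so the drugs act on the same protein from its opposite ends. Retinoic acid also switches on its own clearing enzymes of the CYP26 family and its own receptor RARB in many tissues, and in APL cells a rise of interferon-stimulated genes and a fall of MYC are known parts of the response.

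The deposited table gave 41485888 to 49775754 counts a library in the 6 NB4 libraries compared, and 37811652 to 57795273 over all 24. Of its 60655 genes, 16370 passed the filter on low counts in the NB4 libraries and were tested. Values are CPM (gene counts relative to the library size after TMM scaling), changes are log2 fold changes of the combination over ATO with their standard error, and a gene was called where its Benjamini-Hochberg adjusted p from edgeR's quasi-likelihood test over all 16370 genes was below 0.05. In the first principal component of the 12 NB4 libraries (67.8% of the variance) the combination libraries lay at -98.8 to -89.8, the ATO libraries at 50.3 to 53.04, the ATRA libraries at -69.9 to -60.5 and the untreated libraries at 104 to 109. Mitochondrially encoded transcripts made up 3.10% to 3.85% of counts in the combination libraries and 2.93% to 3.81% in the ATO libraries. Each of the 7 promyelocytic marker genes of the line had reads in both groups, though ELANE did not pass the filter on low counts. Their summed level was 2628 to 3375 CPM in the combination libraries and 8346 to 8415 CPM in the ATO libraries. MPO made up most of that sum in both groups, so the sum mainly follows MPO and does not show a fall of the other markers.

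Addition of ATRA to ATO changed the majority of the genes that could be tested. In all, 9312 of 16370 genes were called, 4676 of them higher (28.6% of the genes tested) and 4636 lower (28.3%). Of the called genes, 9239 moved the same way in all 3 batch numbers. That agreement is no separate support, since the calls came from the same libraries. The changes of at least 2-fold were uneven, with 2176 genes higher and 1090 lower, while the median over all genes was 0.012. Of the called genes, 8068 were protein-coding. In 96 called genes no read was counted in any ATO library, and in 15 none was counted in any combination library, and for these a fitted fold change is not a measured size.

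**Figure D1:**
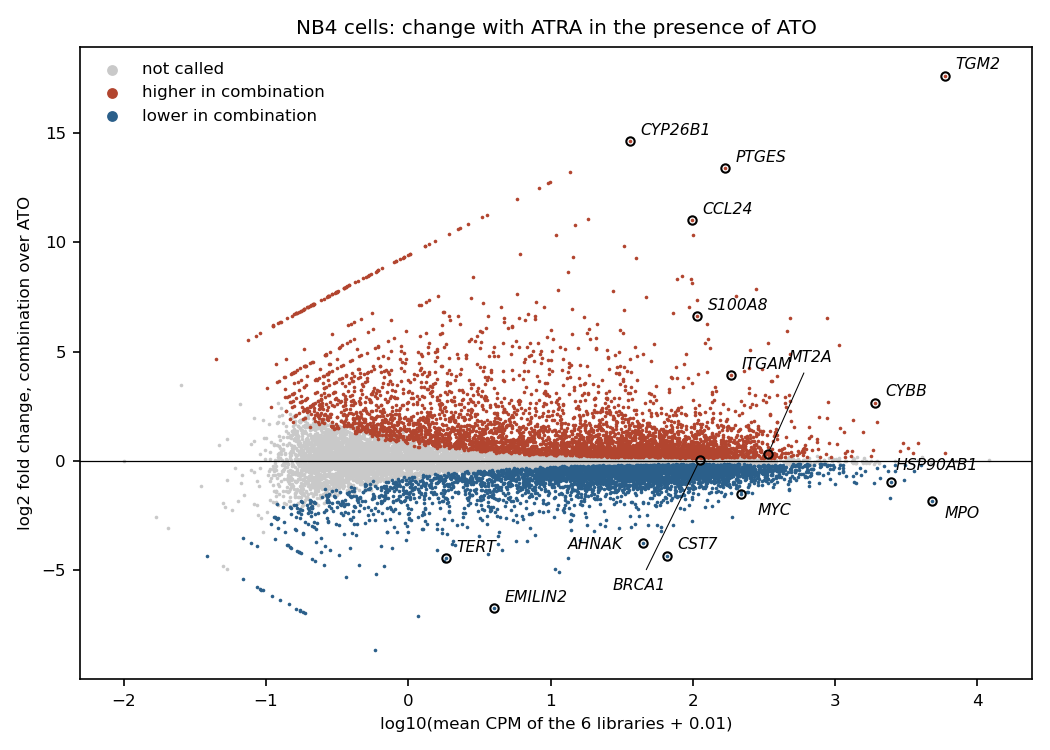
Log2 fold change (combination over ATO, vertical axis) against the mean level of the 6 NB4 libraries (horizontal axis, log10 of CPM plus 0.01) for the 16370 genes tested, with called genes in colour and 16 named genes circled. Rises reach much further from 0 than falls, up to a log2 change of 17.62 for TGM2, and the straight streaks at low level are genes with no read in the ATO or the combination libraries.

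Of the protein-coding genes that averaged 5 CPM or more in one of the groups and moved one way in all 3 batch numbers, the largest rise belonged to TGM2, the gene of tissue transglutaminase, an enzyme that cross-links proteins and a known retinoid target in APL cells. It lies at chr20:38127387-38166578 (GRCh38, GENCODE 29). TGM2 had 11130, 12300 and 12210 CPM in the combination libraries, against 0.0415, 0.0817 and 0.0439 CPM in the ATO libraries, where only 8 reads were counted in all. The ratio was 212000 (108000 to 491000, 95% interval for counting error only). Whether reads or fragments were counted is not given, and where a fragment was counted as 2 reads this and the other counting intervals are too narrow. PTGES, which encodes the inducible prostaglandin E synthase, had 263, 354 and 388 CPM in the combination libraries, against 4 reads in all in the ATO libraries, a ratio of 11900 (4660 to 43800). The other 8 of the 10 largest rises had no read in any ATO library.

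CYP26B1, which encodes a retinoic acid-degrading enzyme (chr2:72129238-72148038), had 58.1, 75.9 and 81.8 CPM in the combination libraries and 0 reads in the ATO libraries, at least 1140-fold higher when a floor of 3 counts a library is set for the ATO group. MPEG1, the gene of the pore-forming phagocyte protein perforin-2, had 24.3, 25.5 and 32.8 CPM against 0 reads, at least 436-fold higher. On the same floor the rise was at least 315-fold for the actin regulator DAAM2, at least 304-fold for the leukocyte receptor LILRA5, at least 263-fold for RARB and at least 182-fold for G0S2, an inhibitor of fat breakdown. It was at least 112-fold for the aspartic protease NAPSA and at least 104-fold for the inhibitory receptor LILRB3. All 8 were read in every combination library, from 5.60 CPM in the lowest library of NAPSA to 81.8 CPM in the highest of CYP26B1. LILRA5 and LILRB3 belong to a family of near-identical neighbouring genes, between which reads may have been split, so their levels are uncertain.

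Falls were smaller. EMILIN2, an extracellular matrix glycoprotein gene (chr18:2847030-2915993), had 0.0885, 0.118 and 0 CPM in the combination libraries and 6.98, 8.66 and 8.10 CPM in the ATO libraries, a log2 change of -6.73 ± 0.34 (adjusted p = 1.74e-13). Its 10 combination reads make the ratio of ATO over combination 110.0, with a counting interval of 59.7 to 230.0. STAB1, which encodes the scavenger receptor stabilin-1, had 0.796, 0.592 and 0.554 CPM against 21.4, 25.7 and 19.8 CPM. CST7, the gene of cystatin F, an inhibitor of lysosomal cathepsins, had 5.84, 7.33 and 5.33 CPM against 126, 125 and 122 CPM (-4.33 ± 0.13). In none of these genes did the 2 groups overlap, which was also so for 10638 of the 16370 genes tested (65.0%). AHNAK, a giant scaffold protein gene, fell by 3.74 on the log2 scale, to 6.202 ± 0.419 CPM in the combination libraries, against 82.8 ± 5.70 CPM in the ATO libraries (SD, n = 3 each). ZBTB16, which encodes the transcriptional repressor PLZF, fell to 2.40 ± 0.504 CPM, against 29.8 ± 2.15 CPM. The other members of the 10 largest falls were PRRT4 (-4.95 ± 0.17), the sphingosine receptor gene S1PR3 (-4.46 ± 0.19), the G protein subunit gene GNG4 (-4.25 ± 0.30), the annexin gene ANXA8 (-3.80 ± 0.22) and the serpin gene SERPINB10 (-3.67 ± 0.20). ANXA8 has a near-identical copy in the genome, so its level is uncertain.

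Most of the measured genes that handle, sense or answer retinoic acid rose. Of 16 measured genes for retinoid metabolism and receptors (of 22 listed), 10 rose and 4 fell, with a median of 1.32. Of 18 measured genes known to answer retinoids, 16 rose and 1 fell, with a median of 2.91; among all tested genes 28.6% rose and the median was 0.012. DHRS3, an enzyme that turns retinaldehyde back into retinol, had 150.4, 158 and 152 CPM in the combination libraries and 0.332, 0.653 and 0.439 CPM in the ATO libraries (8.32 ± 0.19). CYP26A1, the other retinoic acid-clearing enzyme gene, had 2.28, 4.25 and 4.82 CPM against 5 reads in all in the ATO libraries, a ratio of 108 (46.0 to 334). DHRS9, a retinol dehydrogenase gene, had 224, 234 and 256 CPM against 73.1, 78.6 and 75.1 CPM (1.65 ± 0.065). RARB, the receptor gene that retinoic acid itself induces, had 16.2, 14.4 and 19.2 CPM against 0 reads. RARA, the receptor gene that is part of the fusion, had 52.1, 54.8 and 45.8 CPM against 24.9, 25.6 and 26.7 CPM (0.98 ± 0.091), and gene counts do not separate the normal allele from the fused one. HIC1, a zinc-finger repressor gene, had 64.0, 68.6 and 65.2 CPM against 0, 0.163 and 0.0439 CPM. CD38, an ectoenzyme gene with a retinoic acid element in its first intron, had 672, 696 and 731 CPM against 84.9, 91.2 and 83.8 CPM (3.01 ± 0.06). Every one of these genes was higher in each combination library than in any ATO library. The 2 groups did not overlap, in one direction or the other, in 65.0% of all tested genes. The falls of the metabolism and receptor list were the receptor partner gene RXRA (-0.86 ± 0.11), the retinol dehydrogenase gene RDH10 (-1.03 ± 0.12), the retinaldehyde dehydrogenase gene ALDH1A1 (-3.36 ± 0.93) and the fatty acid-binding protein gene FABP5 (-1.40 ± 0.083), and RXRB and CRABP2 did not pass.

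The start regions of RARB and CYP26A1 are shown because both genes had 0 to 5 reads in all in the ATO libraries and because each holds a pair of receptor hexamers spaced as in a retinoic acid element. The capitals mark the 2 hexamers, from RefSeq start regions of build GRCh38.p14, read 5′ to 3′ on the strand of the gene.
RARB: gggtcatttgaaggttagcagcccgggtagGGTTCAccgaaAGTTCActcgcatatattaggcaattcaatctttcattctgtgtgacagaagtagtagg
CYP26A1: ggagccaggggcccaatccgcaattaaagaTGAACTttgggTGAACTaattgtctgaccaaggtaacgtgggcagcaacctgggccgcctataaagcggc
The RARB stretch is chr3:25428180-25428279 (plus strand), with the element starting 53 bases before the annotated start, and the CYP26A1 stretch is chr10:93073773-93073872 (plus strand), with the element 90 bases before the start and written on the opposite strand. The exact letters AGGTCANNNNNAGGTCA, on both strands, were found in the windows (250 bases before to 50 after a start) of 2 of 27305 genes and in none of these lists. A relaxed direct repeat with a 5-base gap, named here without its ambiguous letters and tried after the exact letters had found nothing in the lists, was present in 29 genes (0.106%), and RARB and CYP26A1 were 2 of the 19 retinoid metabolism and receptor genes with a window. Among called genes with a window, 7 of 3359 that rose and 0 of 3629 that fell held it. The single hexamer AGGTCA was in 15.5% of the windows of genes that rose, 12.1% of those that fell and 13.9% of all tested genes, and, of the 8 largest rises with a window, in that of RARB.

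The surface, adhesion and signalling genes of mature myeloid cells were the next group to rise. Of 30 measured surface receptor genes, 27 rose and 1 fell (median 2.40), where 28.6% and 28.3% of all tested genes did. ITGAM, which encodes CD11b, the integrin chain used to score neutrophil maturation, had 339.9, 354 and 356 CPM in the combination libraries and 22.8, 24.2 and 22.2 CPM in the ATO libraries (3.92 ± 0.083, adjusted p = 5.94e-20). PTAFR, the receptor for platelet-activating factor, and the tetraspanin gene CD53 rose by 3.98 ± 0.092 and 2.77 ± 0.069. Of 18 measured adhesion genes, 13 rose and 3 fell, among them ITGAX (CD11c, 3.19 ± 0.094), ITGB7 (4.79 ± 0.14) and ICAM1, the ligand of the leukocyte integrins, with 846, 989 and 947 CPM against 27.8, 36.0 and 28.8 CPM. Of the 14 Src-family kinase and partner genes, 12 rose and 0 fell, with a median of 1.78, or 1.66 when a member with no read in the ATO libraries is set at its bound. FGR, a Src-family kinase of neutrophils, had 624, 683 and 673 CPM against 14.7, 17.4 and 15.5 CPM. The Fc receptor chain gene FCER1G (2.48 ± 0.10), the adaptor gene SKAP2 (1.92 ± 0.077) and PRAM1, an adaptor first described as a gene that PML-RARA represses (1.84 ± 0.069), rose with it.

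Genes of late granules mostly rose and genes of early granules mostly fell, with exceptions in both lists. Of all tested genes 28.6% rose and 28.3% fell. Specific and gelatinase granules form late in neutrophil maturation, and of 16 measured genes for their proteins 12 rose and 3 fell (median 1.74). Primary granules form in promyelocytes, and of 13 measured genes for theirs 4 rose and 8 fell (median -0.76). MPO, the gene of myeloperoxidase, a primary granule enzyme, had 2307, 2215 and 1747 CPM in the combination libraries and 7510, 7534 and 7443 CPM in the ATO libraries (-1.84 ± 0.074, adjusted p = 2.83e-15). PRSS57, a primary granule protease gene, fell as well (-3.06 ± 0.10). BPI, which encodes a bactericidal protein that binds endotoxin and is also counted among primary granule genes, went the other way with 232, 262 and 252 CPM against 2.85, 2.96 and 3.78 CPM (6.29 ± 0.13), as did the defensin gene DEFA4 (3.02 ± 0.072) and SERPINB1, an inhibitor of neutrophil elastase (2.55 ± 0.087). Of the late granule genes, collagenase gene MMP8 had 23.8, 29.4 and 33.6 CPM against 6 reads in all in the ATO libraries, a ratio of 687 (315 to 1870). The arginase gene ARG1 had 4.87, 7.94 and 8.89 CPM against 10 reads in all, a ratio of 103 (55.9 to 216). MMP9, the gelatinase gene, fell (-3.06 ± 0.16).

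The oxidase that makes the respiratory burst rose at 9 of 10 genes, and 0 fell. CYBB, its membrane catalytic subunit, had 3120, 3134 and 3664 CPM in the combination libraries and 519, 534 and 513 CPM in the ATO libraries (2.66 ± 0.069). Its partner CYBA rose less (1.21 ± 0.075). NCF1, which encodes a cytosolic subunit, showed the largest change of the complex, with 1922, 2160 and 2131 CPM against 48.9, 55.3 and 51.9 CPM, and is uncertain because near-identical pseudogenes can take or give its reads. Of the 10 S100 genes, 5 rose and 1 fell, where 28.6% and 28.3% of all tested genes did. S100A8 and S100A9, which together encode calprotectin, the main cytosolic protein of neutrophils, had 212 ± 37.6 and 492 ± 73.5 CPM in the combination libraries, against 2.12 ± 0.264 and 14.6 ± 0.944 CPM in the ATO libraries (SD, n = 3 each).

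Among 25 myeloid transcription factor genes, 17 rose and 6 fell, compared with 28.6% and 28.3% of all tested genes. CEBPE, needed for the step from promyelocyte to myelocyte, had 357, 379 and 354 CPM in the combination libraries and 131, 132 and 139 CPM in the ATO libraries (1.44 ± 0.071). CEBPB, the factor of stress-driven granulopoiesis, rose further (2.44 ± 0.089), and ID1 reached 14.8 ± 0.637 CPM against 0.619 ± 0.236 CPM. MYB, which keeps progenitors dividing, fell to 141 ± 8.96 CPM, against 384 ± 8.05 CPM (SD, n = 3 each). Of 15 measured stem and leukaemia-associated genes, 1 rose and 7 fell, and the falls included TERT, described with telomerase, WT1 (-2.54 ± 0.12) and GATA2 (-1.34 ± 0.13). ASB2, a ubiquitin ligase subunit that retinoic acid induces in APL cells, had 120.0, 139 and 133 CPM against 8.77, 8.90 and 9.70 CPM (3.84 ± 0.13).

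Interferon-stimulated genes rose almost as a block. Of 46 measured, 42 were higher and 1 lower (median 2.02), against 28.6% and 28.3% of all tested genes. SAMHD1, which limits the supply of nucleotides for viral replication, had 602, 582 and 626 CPM in the combination libraries and 76.7, 77.2 and 82.0 CPM in the ATO libraries (2.94 ± 0.074, adjusted p = 7.43e-19). IRF1, a transcription factor of the interferon response, had 161, 189 and 172 CPM against 30.5, 33.5 and 34.5 CPM (2.41 ± 0.08). OAS3, which makes the activator of RNase L, had 51.5, 51.9 and 48.2 CPM against 8.04, 9.29 and 8.67 CPM (2.54 ± 0.092), and IFI6 rose by 2.90 ± 0.13. The 2 groups were apart in each of the 4, as in 65.0% of all tested genes. Genes of peptide presentation by MHC class I, which interferons also induce, rose at 15 of 17 and fell at 2 (median 0.96). The aminopeptidase gene ERAP2 had 314, 282 and 304 CPM against 118, 120.1 and 105 CPM, and the immunoproteasome genes PSMB10 (1.61 ± 0.092) and PSME2 (1.09 ± 0.057) rose with it, while the chaperone gene CALR, counted in the same list, fell (-1.68 ± 0.059). Of the 11 MHC class II genes listed, 2 passed the filter on low counts, and CD74 rose to 18.5 ± 0.635 CPM, against 0.996 ± 0.0732 CPM.

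Start regions of 4 of these genes are shown because the core of the interferon-stimulated response element was searched for in this group and found in each of them. Capitals mark the letters GAAA of each GAAANNGAAA match on either strand, where on the opposite strand they read TTTC, and overlapping matches share a run.
ISG15: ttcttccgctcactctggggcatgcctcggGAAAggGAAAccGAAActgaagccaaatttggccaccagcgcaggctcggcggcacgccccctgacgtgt
IFIT3: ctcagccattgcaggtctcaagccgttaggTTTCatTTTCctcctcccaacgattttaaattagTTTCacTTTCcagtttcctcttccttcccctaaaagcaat
RSAD2: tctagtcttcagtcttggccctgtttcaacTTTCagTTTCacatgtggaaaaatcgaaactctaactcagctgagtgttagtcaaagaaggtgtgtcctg
TAP1: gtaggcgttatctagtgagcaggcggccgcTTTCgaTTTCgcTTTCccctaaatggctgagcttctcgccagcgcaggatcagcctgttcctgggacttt
These RefSeq stretches of build GRCh38.p14 are chr1:1013354-1013453 (plus strand) for ISG15, chr10:89327811-89327914 (plus) for IFIT3, chr2:6877602-6877701 (plus) for RSAD2 and chr6:32853769-32853868 (minus) for TAP1. ISG15 encodes a ubiquitin-like modifier, IFIT3 a partner of the sensors of foreign RNA, RSAD2 the antiviral enzyme viperin and TAP1 the peptide transporter of the MHC class I pathway. ISG15 had 8.34, 10.4 and 9.56 CPM in the combination libraries and 2.99, 3.76 and 2.96 CPM in the ATO libraries (1.54 ± 0.14), and TAP1 had 16.5, 19.0 and 15.4 CPM against 9.30, 9.31 and 8.91 CPM (0.88 ± 0.12). IFIT3 rose by 2.14 ± 0.17. RSAD2 had 0.221, 0.276 and 0.739 CPM against 0 reads, at least 6.53-fold higher. The core was present in 24 of 37 interferon-stimulated genes with a window (64.9%) and in 11 of 15 MHC class I genes (73.3%), compared with 4.38% of all 27305 genes with a window. Among called genes it was in 5.75% of windows of genes that rose, 8.03% of those that rose at least 2-fold and 3.17% of those that fell, against 4.12% of all tested genes. A match is a stretch of letters, not a shown binding site.

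Signals sent out of the cell rose too. Of 23 measured chemokine and cytokine genes, 17 rose and 3 fell (median 2.29), where 28.6% and 28.3% of all tested genes did. CCL24, which attracts eosinophils, had 184, 203 and 201 CPM in the combination libraries and 0.0415, 0.163 and 0.0659 CPM in the ATO libraries. CCL2, the monocyte attractant, had 154, 182 and 182 CPM against 5.90, 5.31 and 6.21 CPM (4.90 ± 0.11), and IL1B had 24.1, 32.4 and 31.8 CPM against 2.20, 1.51 and 2.63 CPM (3.80 ± 0.18). Cytokine release by maturing APL cells is part of the differentiation syndrome known from patients given these drugs. Of 15 NF-kB subunit and feedback genes, 10 rose and 1 fell, with TNFAIP2 at 474 ± 30.4 CPM against 79.7 ± 2.56 CPM and BCL3, NFKBIZ and REL higher by 1.72, 2.00 and 1.18. In the synthesis of lipid mediators 7 of 11 measured genes rose and 2 fell. ALOX5AP, which presents arachidonic acid to 5-lipoxygenase, had 1543, 1820 and 1815 CPM against 17.3, 21.0 and 16.9 CPM (6.55 ± 0.11), and the cyclooxygenase gene PTGS1 had 254, 259 and 266 CPM against 24.8, 24.7 and 26.0 CPM (3.37 ± 0.065).

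APL is known for bleeding and clotting. Of 13 measured coagulation genes 8 were higher and 2 lower, where 28.6% and 28.3% of all tested genes were. F3, which encodes tissue factor, the starter of clotting, had 0.641, 0.869 and 1.02 CPM in the combination libraries and 6.19, 5.72 and 7.05 CPM in the ATO libraries (-2.90 ± 0.19). ANXA2, which gathers plasminogen on the cell surface, fell to 32.3 ± 2.97 CPM, against 87.2 ± 2.65 CPM (-1.43 ± 0.081). SERPINB2, an inhibitor of plasminogen activators, had 30.4, 37.3 and 53.4 CPM against 0.935, 0.898 and 1.62 CPM (5.14 ± 0.24), and the clotting factor gene F5 rose (6.50 ± 0.37).

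**Figure D2:**
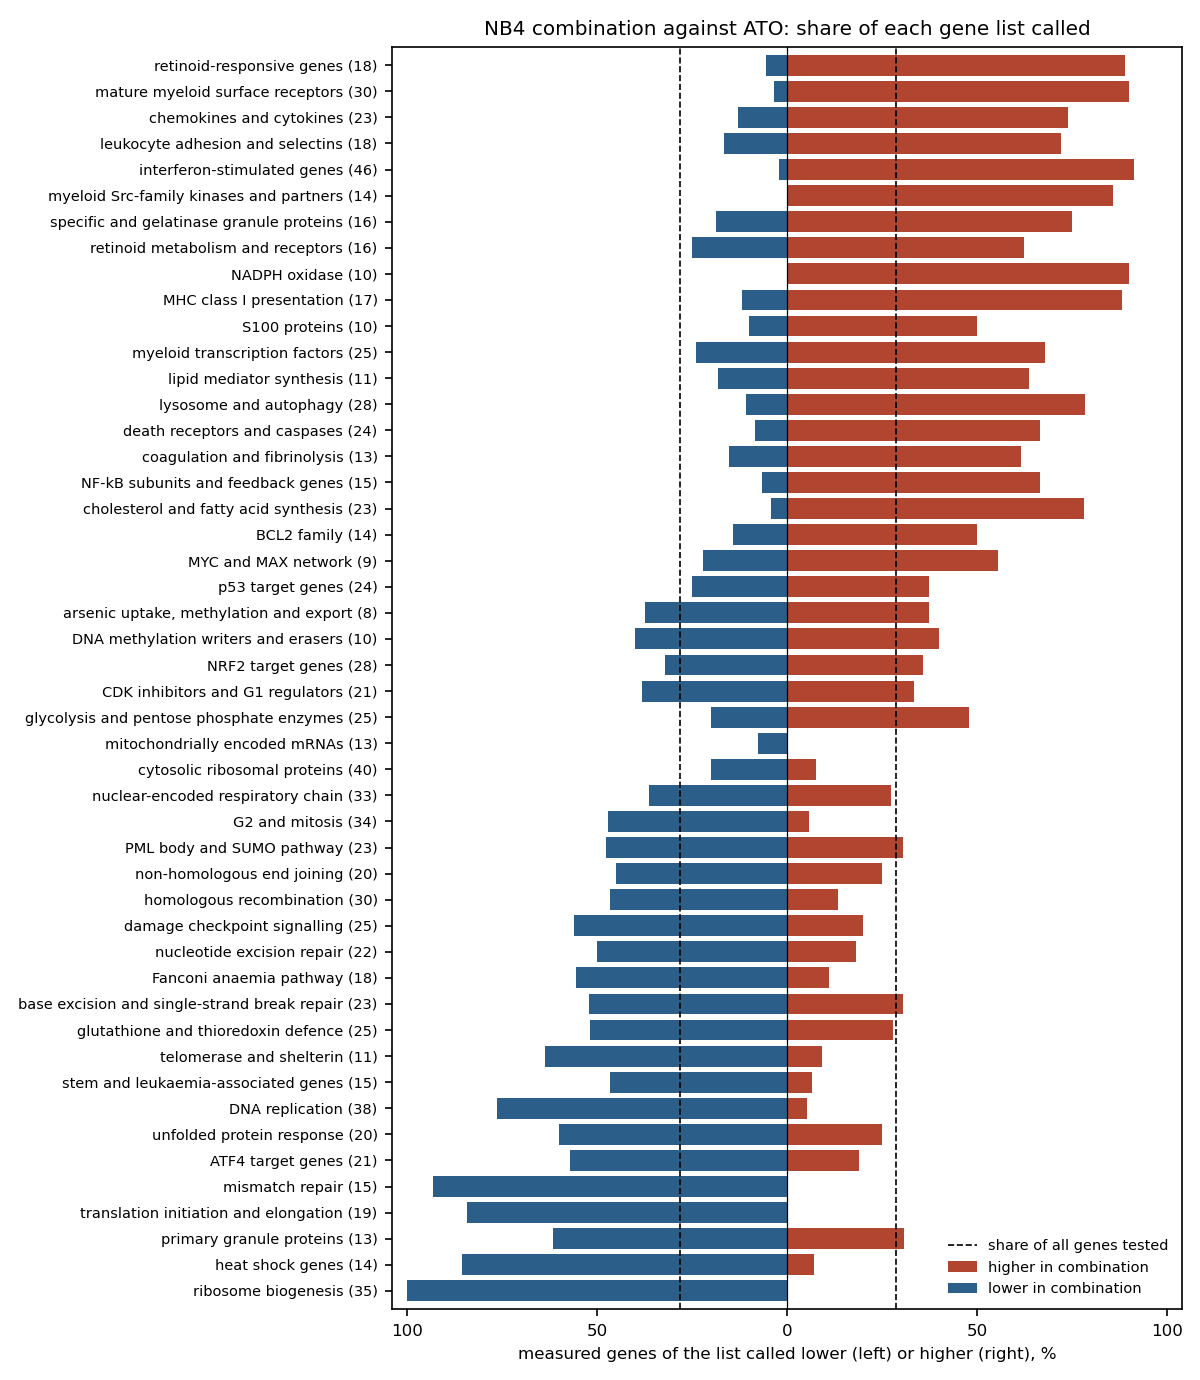
Share of the measured genes of each list called higher (right) or lower (left) in the NB4 combination against ATO, in percent, ordered by the list's median log2 change, with the number of measured genes in brackets and dashed lines at the shares of all genes tested (28.6% and 28.3%). Maturation, retinoid and interferon lists fill the right side, and ribosome biogenesis, heat shock, translation, mismatch repair and DNA replication fill the left.

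The machinery that makes ribosomes and proteins fell. All 35 of 35 ribosome biogenesis genes were called lower, with a median of -1.07, where 28.3% of all tested genes fell. NOLC1, a nucleolar chaperone of ribosomal RNA modification, had 287, 296 and 249.8 CPM in the combination libraries and 676, 670.1 and 680.5 CPM in the ATO libraries (-1.28 ± 0.061, adjusted p = 5.26e-14). The assembly factor genes NOP16, NIP7 and RRP1B fell by 1.25, 1.25 and 1.13 on the log2 scale. Of 19 translation factor genes, 16 fell and 0 rose, including EIF3B (-1.05 ± 0.06), the cap-binding factor gene EIF4E (-0.79 ± 0.07) and EIF5A (-0.86 ± 0.064). EIF3C (-1.01 ± 0.087) has a near-identical copy and is uncertain. The ribosomal protein genes themselves stayed closer to their ATO level, with 3 of 40 higher, 8 lower and a median of -0.087. That count of falls was 14 without combination library 2 and 13 with library sizes alone.

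MYC, the driver of ribosome production and growth, had 115, 122 and 103 CPM in the combination libraries and 320.2, 316 and 326 CPM in the ATO libraries (-1.503 ± 0.069, adjusted p = 3.29e-14). For the lists that follow, the share over all tested genes was 28.6% for rises and 28.3% for falls. Of 9 measured genes of the MYC and MAX network 5 rose and 2 fell (median 0.30). Of the antagonists of MYC in it, MXD1 had 113, 122 and 151 CPM against 27.4, 26.1 and 22.2 CPM, MXD4 (0.98 ± 0.09), MNT (0.74 ± 0.088) and MXD3 (0.39 ± 0.16, adjusted p = 0.0431) also rose, and MXI1 was not called (0.045 ± 0.087, adjusted p = 0.69). Of 14 measured heat shock genes, 12 fell and 1 rose (median -0.77). HSP90AB1, the constitutive cytosolic HSP90, had 1696, 1745 and 1560 CPM against 3292, 3318 and 3267 CPM. The mitochondrial chaperones HSPD1 (-1.08 ± 0.062), HSPA9 (-0.97 ± 0.057) and TRAP1 (-1.44 ± 0.07) also fell. In the unfolded protein response 12 of 20 genes fell and 5 rose, with XBP1 at 34.7 ± 3.62 CPM against 99.5 ± 5.73 CPM (SD, n = 3 each), and PDIA6 (-0.93 ± 0.054) and PDIA4 (-0.78 ± 0.06) lower. The count of rises was 3 without combination library 1 or 3 or without any single ATO library. Of 21 measured ATF4 target genes 12 fell and 4 rose, and SLC7A5, an amino acid transporter gene, had 56.9, 60.4 and 45.5 CPM against 330.3, 317 and 320.4 CPM (-2.57 ± 0.084). PHGDH (-2.00 ± 0.094) and PSAT1 (-1.62 ± 0.072), both of serine synthesis, fell with it.

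DNA replication genes fell at 29 of 38 and rose at 2 (median -0.41). MCM4, a subunit of the replicative helicase, had 247, 262 and 228 CPM in the combination libraries and 465, 440.3 and 469 CPM in the ATO libraries (-0.90 ± 0.059), and MCM3, MCM6 and GINS2 fell by 0.75, 0.77 and 0.77 on the log2 scale. Genes of G2 and mitosis fell at 16 of 34 and rose at 2 with a smaller median of -0.15, among them CCNA2 (-0.58 ± 0.063) and MAD2L1 (-0.59 ± 0.067). The rises numbered 1 in place of 2 in DNA replication without ATO library 3, and in G2 and mitosis without combination library 1 or 2 or ATO library 1 or 3. Of 21 measured CDK inhibitor and G1 genes 7 rose and 8 fell, where 28.6% and 28.3% of all tested genes did. CDKN1A, which encodes the cell cycle inhibitor p21, had 10.8, 13.4 and 13.4 CPM against 0.582, 0.49 and 0.527 CPM (4.55 ± 0.25). CDKN2D, another inhibitor of CDK4 and CDK6, rose to 49.0 ± 3.40 CPM, against 14.4 ± 1.12 CPM, while CDK4 itself fell (-1.15 ± 0.076), as did SKP2, the ligase subunit that removes CDK inhibitors (-0.71 ± 0.058).

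The DNA repair lists, which carry the question of the series, fell to different extents. Among all tested genes 28.3% fell and 28.6% rose. Mismatch repair, which corrects copying errors, had the highest share of falls among the repair lists, with 14 of 15 genes lower, 0 higher and a median of -0.49. MSH6 had 129, 122 and 121 CPM in the combination libraries and 202, 207 and 194 CPM in the ATO libraries (-0.70 ± 0.075, adjusted p = 4.74e-08). The groups did not overlap, as in 65.0% of all tested genes. Several members of this list, such as the clamp loader gene RFC3 (-0.73 ± 0.065) and the exonuclease gene EXO1 (-0.70 ± 0.084), also serve replication or recombination.

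In base excision and single-strand break repair 12 of 23 genes fell and 7 rose (median -0.24), where 28.3% and 28.6% of all tested genes did. UNG, which removes uracil from DNA, had 54.6, 59.0 and 51.4 CPM in the combination libraries and 129.8, 124 and 134 CPM in the ATO libraries (-1.23 ± 0.067). NTHL1 (-1.49 ± 0.12) and APEX1 (-0.87 ± 0.067), which cut out oxidised bases and the sites they leave, fell too. PARP1, the sensor of strand breaks, had 315, 316 and 278 CPM against 508, 490.2 and 503 CPM (-0.72 ± 0.057). Homologous recombination fell at 14 of 30 genes and rose at 4, with XRCC2 at 32.4 ± 1.24 CPM against 67.2 ± 4.75 CPM (SD, n = 3 each) and RAD54L lower (-0.73 ± 0.08). BRCA1, which promotes the resection of broken ends, had 126, 106 and 105 CPM against 108, 115 and 109 CPM and was not called (0.025 ± 0.10, adjusted p = 0.851). Its 2 groups overlapped. The Fanconi anaemia genes, for crosslink repair, fell at 10 of 18 and rose at 2 (1 without ATO library 2), and FANCG, FAAP100, USP1 and UBE2T fell by 0.47, 0.58, 0.42 and 0.38 on the log2 scale.

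Of all tested genes 28.3% fell and 28.6% rose. Non-homologous end joining, which rejoins broken ends, fell at 9 of 20 genes and rose at 5 (3 without ATO library 3). PRKDC, its DNA-dependent kinase, had 577, 548 and 508 CPM in the combination libraries and 819.9, 835 and 762 CPM in the ATO libraries (-0.57 ± 0.061), and XRCC6, which encodes Ku70, fell as well (-0.60 ± 0.053). SHLD2, of the shieldin complex that limits end resection, showed the largest fall of the list (-1.22 ± 0.088). Nucleotide excision repair fell at 11 of 22 measured genes and rose at 4, with the helicase gene ERCC2 lower (-0.69 ± 0.083) and ERCC6, which couples repair to transcription, higher (0.61 ± 0.074). Damage checkpoint signalling fell at 14 of 25 and rose at 5. The rises numbered 2 without combination library 1 or 2 and 3 without any single ATO library. The checkpoint kinase gene CHEK1 had 65.5, 64.5 and 69.7 CPM against 94.5, 98.0 and 93.9 CPM (-0.52 ± 0.079), and the phosphatase gene CDC25A fell to 66.5 ± 2.96 CPM, against 125 ± 6.32 CPM. ATM, the kinase that answers double-strand breaks, moved the other way, with 219, 194 and 233 CPM against 123, 132 and 113 CPM (0.81 ± 0.089, adjusted p = 5.73e-08).

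Telomerase and shelterin genes fell at 7 of 11 and rose at 1. TERT, the catalytic subunit of telomerase, had 0.133, 0.198 and 0.139 CPM in the combination libraries and 3.37, 3.80 and 3.40 CPM in the ATO libraries (-4.46 ± 0.25, adjusted p = 1.05e-12), and DKC1 and NHP2, which stabilise its RNA and also modify ribosomal RNA, fell by 0.93 and 0.83 on the log2 scale. Among 24 measured p53 target genes 9 rose and 6 fell, shares not far from those of all tested genes (28.6% and 28.3%). BTG2, an antiproliferative gene, had 12.1, 18.3 and 12.7 CPM against 1.75, 1.55 and 1.23 CPM (3.25 ± 0.18), whereas the exonuclease gene AEN (-1.495 ± 0.07) and TRIAP1 (-0.90 ± 0.081) fell.

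Genes of cell death rose more often than they fell, while the shares over all tested genes were 28.6% higher and 28.3% lower. Of 24 measured death receptor and caspase genes 16 rose and 2 fell, with CASP8 at 160.3, 169.7 and 192 CPM in the combination libraries and 79.8, 80.1 and 91.6 CPM in the ATO libraries, and CASP10 (1.18 ± 0.081) and TNFRSF1B (3.82 ± 0.22) also higher. In the BCL2 family 7 of 14 measured genes rose and 2 fell, a few genes away from those shares. BCL2 had 3.45, 4.15 and 3.56 CPM against 24.8, 23.1 and 24.9 CPM (-2.70 ± 0.12). BCL2A1, a survival gene of neutrophils, had 205, 232 and 276 CPM against 6.75, 5.06 and 4.87 CPM (5.41 ± 0.14), and MCL1, the survival gene on which neutrophils depend, had 478, 537 and 584 CPM against 233, 227 and 235 CPM (1.201 ± 0.079). The pro-apoptotic gene BAK1 rose by 0.72 ± 0.078.

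Of the 9 metallothionein genes listed, which encode metal-binding proteins that arsenic induces, 3 passed the filter, and all 3 rose. MT2A had 357, 404 and 369 CPM in the combination libraries and 299, 294 and 303 CPM in the ATO libraries (0.33 ± 0.075, adjusted p = 0.000563), MT1F had 25.4, 28.8 and 32.5 CPM against 8.93, 10.2 and 8.52 CPM (1.65 ± 0.16), and MT1X rose by 0.38 ± 0.12. Metallothionein genes are close copies of each other, so reads may have been split between them. HMOX1, the haem oxygenase gene that marks oxidative and arsenic stress, had 29.4, 28.9 and 28.4 CPM against 14.2, 14.4 and 16.8 CPM (0.93 ± 0.15). GCLM, a subunit gene of the enzyme that starts glutathione synthesis, fell (-0.49 ± 0.073). Of the 28 NRF2 target genes 10 rose and 9 fell, shares near those of all tested genes (28.6% and 28.3%); the pentose phosphate genes PGD (1.88 ± 0.065) and TKT (1.34 ± 0.065) were among the rises and the peroxiredoxin gene PRDX1 (-1.19 ± 0.058) among the falls. Glutathione and thioredoxin genes fell at 13 of 25 measured and rose at 7, with MGST1 at 84.2 ± 2.34 CPM against 217 ± 1.76 CPM, and TXNIP, the inhibitor of thioredoxin, higher (1.63 ± 0.077).

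AQP9, a channel through which trivalent arsenic enters cells, had 20.8, 24.6 and 37.9 CPM in the combination libraries and 0.498, 0.408 and 0.571 CPM in the ATO libraries (5.81 ± 0.23). The exporter gene ABCC4 and the methyltransferase gene N6AMT1 fell by 0.90 and 0.88 on the log2 scale, and GSTO1, which reduces arsenic, rose (0.97 ± 0.078). In all, 3 of 8 measured genes of arsenic handling rose and 3 fell, where 28.6% and 28.3% of all tested genes did. PML, the partner gene of the fusion and the target of arsenic, had 131, 137 and 124 CPM against 81.2, 81.9 and 81.1 CPM (0.68 ± 0.065), and, as for RARA, gene counts do not separate the fused allele. Of the 23 genes of PML bodies and the SUMO pathway 7 rose and 11 fell. The PML body genes SP100 (1.18 ± 0.09) and SP110 (1.499 ± 0.074), which interferon also induces, rose, and UBA2, a subunit of the SUMO-activating enzyme, fell (-0.66 ± 0.063).

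The shares over all tested genes were 28.6% higher and 28.3% lower. In sterol and fatty acid synthesis 18 of 23 measured genes rose and 1 fell, with a median of 0.33. SREBF1, a regulator of these genes, had 187, 198 and 174 CPM in the combination libraries and 96.6, 102 and 99.1 CPM in the ATO libraries (0.91 ± 0.074). Lysosome and autophagy genes rose at 22 of 28 measured and fell at 3 (5 with library sizes alone). CTSD, the gene of cathepsin D, had 659.9, 685 and 664 CPM against 52.2, 51.2 and 55.7 CPM (3.66 ± 0.074), and the autophagy receptor gene NBR1 rose (1.15 ± 0.071). Of 25 glycolytic and pentose phosphate genes 12 rose and 5 fell around a median of 0.025, near the 0.012 of all tested genes. HK3, the hexokinase of myeloid cells, had 145, 144 and 143 CPM against 1.33, 1.27 and 1.38 CPM (6.76 ± 0.13).

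Of 33 nuclear genes of the respiratory chain 9 rose and 12 fell, shares near those of all tested genes. Of the 13 mitochondrial messages MT-CO2 was the one called, with 4212, 3793 and 3278 CPM in the combination libraries and 4405, 4538 and 3917 CPM in the ATO libraries (-0.19 ± 0.075, adjusted p = 0.0353), and its groups overlapped. That call was lost without combination library 2 or 3 or ATO library 1 or 2 (log2 changes of -0.20, -0.091, -0.17 and -0.15), and also with DESeq2, with DESeq2 size factors, with a minimum of 1 CPM and with halved counts (adjusted p = 0.0819, 0.0617, 0.0868 and 0.052). MT-CYB (0.25 ± 0.11, adjusted p = 0.0619) and MT-ND6 (0.29 ± 0.17, adjusted p = 0.152) did not pass, and passed with the batch number as a block (adjusted p = 0.00594 and 0.0421). Both also passed in other settings, among them without ATO library 2 (adjusted p = 0.037 and 0.0303) and, for MT-CYB, without combination library 3 and with halved counts (adjusted p = 0.0191 and 0.0407). Among 10 genes that write or erase DNA methylation 4 rose and 4 fell, where 28.6% and 28.3% of all tested genes did. TET2 (0.83 ± 0.086) and DNMT3A (0.59 ± 0.069) were higher and DNMT3B lower (-0.88 ± 0.085).

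**Figure D3:**
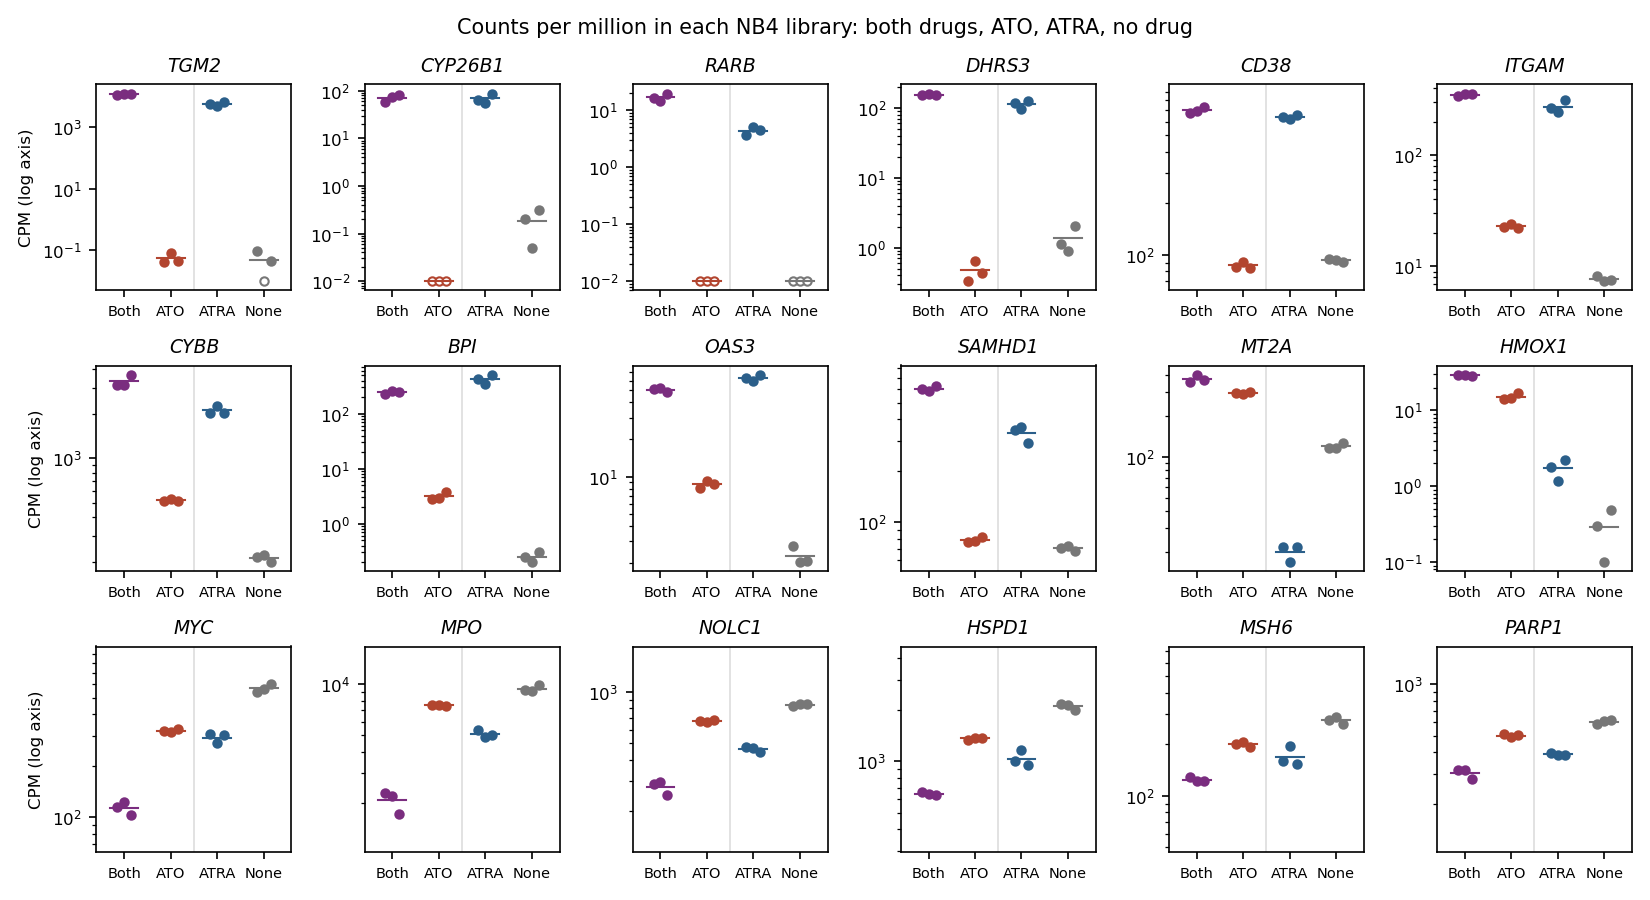
CPM of 18 genes in each NB4 library (log axis), with both drugs, ATO, ATRA and no drug from left to right, a bar at the mean and open circles at 0.01 for libraries with no read. The combination points stand apart from the ATO points in every panel, as they do in 65.0% of all genes tested. In MT2A both groups given ATO (means of 377 and 299 CPM) lie above both groups without it (20.0 and 119.9 CPM).

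The addition of ATRA could be set beside its addition to cells without ATO, since these comparisons share no library. Against untreated cells, ATRA alone called 5117 genes higher (31.3% of the genes tested) and 4689 lower (28.6%). Of the genes called after addition to ATO, 7544 (81.0%) were also called after ATRA alone, and these were 76.9% of the calls of ATRA alone. The sign was the same in 7398 of the 7544 (98.1%), and across the 16370 genes, which are not independent replicates, the 2 sets of log2 changes had Pearson's r = 0.834.

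The size of the change differed for a minority of genes. The difference of the changes (with ATO minus without ATO), tested within the same fit, was called higher for 1005 genes (6.14%) and lower for 2051 genes (12.5%), and its median over all genes was -0.062. The count of higher differences was 1597 without ATRA library 2. A negative difference of a rising gene is a smaller rise in the presence of ATO. Maturation genes were often among these. In mature myeloid receptors 17 of 30 differences were called lower and 1 higher, in the NADPH oxidase 8 of 10 lower, in MHC class I presentation 15 of 17 lower, and in NF-kB genes 11 of 15 lower and 2 higher. Of interferon-stimulated genes 15 of 46 were called lower and 5 higher.

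The integrin gene ITGAM had 349.8 ± 8.59 CPM with both drugs, 23.1 ± 1.03 CPM with ATO, 274 ± 33.8 CPM with ATRA and 7.71 ± 0.441 CPM untreated (SD, n = 3 each). Its level was highest with both drugs and its level without ATRA was higher with ATO than untreated, and the 2 additions of ATRA differed by -1.23 ± 0.11 (adjusted p = 6.79e-08). NCF1 differed by -4.63 ± 0.20 and PRAM1 by -3.64 ± 0.10; PRAM1 had 769 ± 21.1 CPM with both drugs, 215 ± 16.2 CPM with ATO, 622 ± 55.9 CPM with ATRA and 13.9 ± 0.46 CPM untreated. ICAM1 (-2.55 ± 0.21), ASB2 (-2.98 ± 0.22) and HMOX1 (-1.59 ± 0.35) also had negative differences. CD38 (0.23 ± 0.079) and ATM (0.46 ± 0.12) rose slightly more in the presence of ATO.

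Glycolysis, primary granule and chemokine genes also had different medians in the 2 settings. Glycolytic and pentose phosphate genes had a median of 0.025 when ATRA was added to ATO and 0.80 when added without it, where 21 of 25 rose, and 17 differences were called lower and 0 higher. Primary granule genes had medians of -0.76 and 0.53, with 10 of 13 differences lower and 2 higher, and chemokine and cytokine genes medians of 2.29 and 4.24. Cholesterol and fatty acid synthesis had 18 of 23 differences called lower.

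The metallothioneins had positive differences. MT2A had 21.7, 16.8 and 21.6 CPM in the ATRA libraries and 116, 117 and 127 CPM in the untreated libraries, a fall without ATO (-2.58 ± 0.083), and a small rise with ATO, so that the difference was 2.92 ± 0.11 (adjusted p = 7.31e-14). All 3 measured metallothionein genes had a difference called higher. In the repair lists the shares of differences called lay near those of all genes (6.14% higher and 12.5% lower) or differed from them by a few genes: mismatch repair 1 higher and 1 lower of 15, homologous recombination 4 and 2 of 30, base excision repair 0 and 3 of 23, non-homologous end joining 1 and 4 of 20, nucleotide excision repair 1 and 3 of 22, the Fanconi anaemia pathway 0 and 2 of 18, and checkpoint signalling 2 and 2 of 25. A difference that was not called is not shown to be absent. PARP1 had a difference of -0.088 ± 0.081 (adjusted p = 0.503), CHEK1 of 0.10 ± 0.11 (adjusted p = 0.589) and BRCA1 of 0.28 ± 0.14 (adjusted p = 0.17).

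**Figure D4:**
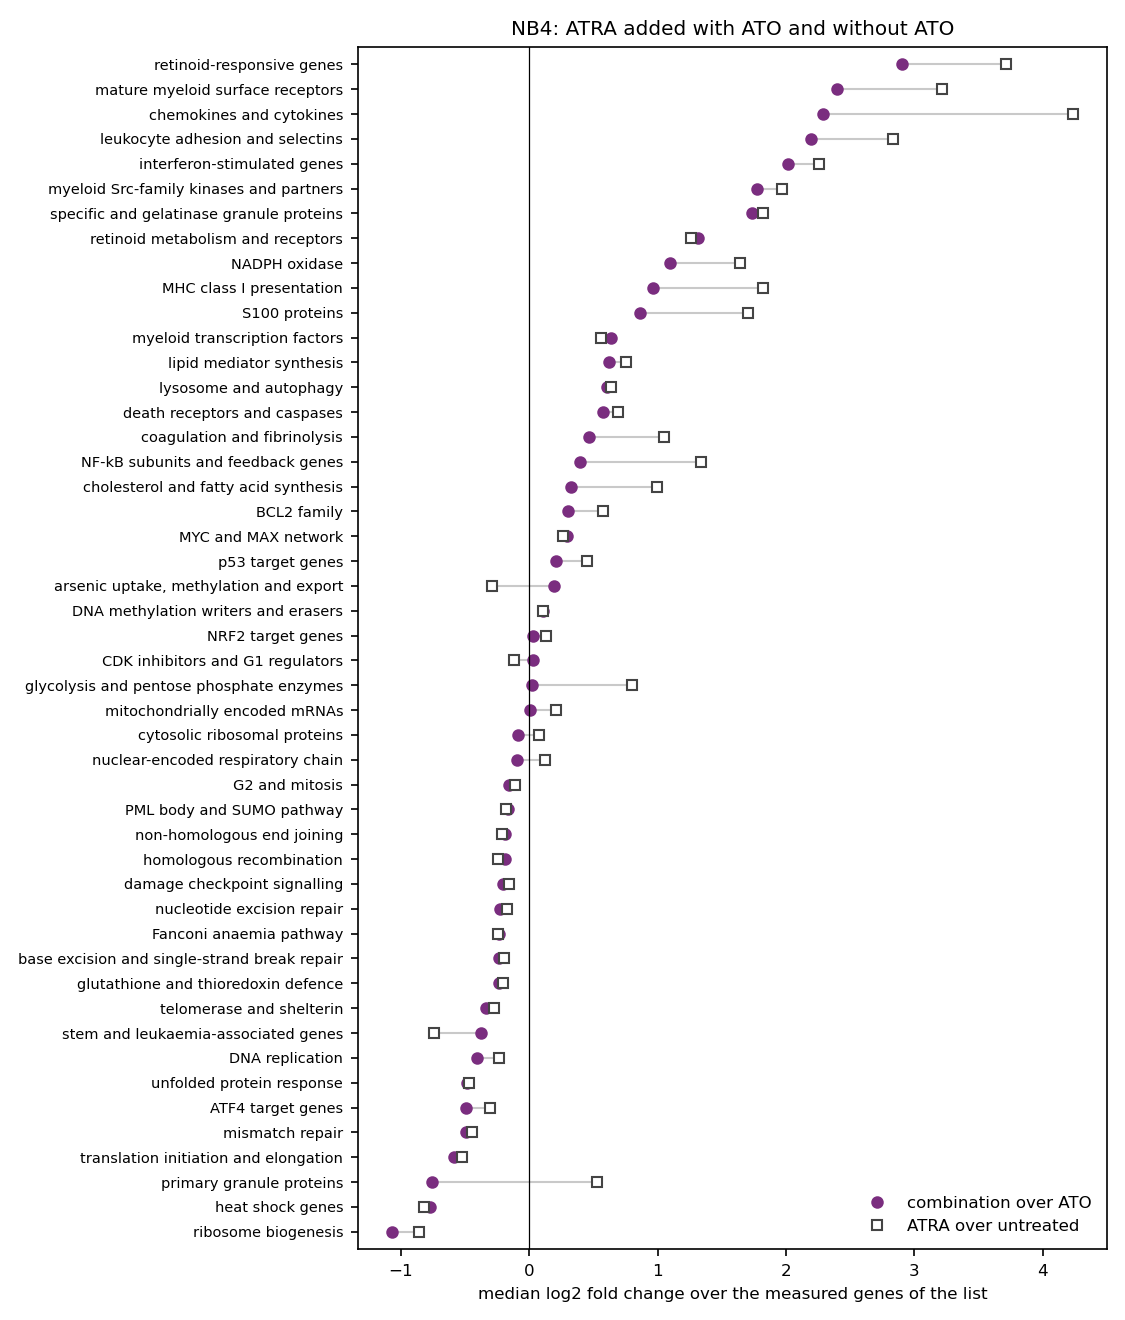
Median log2 fold change of each list of 5 or more measured genes when ATRA was added to ATO (filled circles, combination over ATO) and when it was added alone (open squares, ATRA over untreated) in NB4 cells. Most pairs lie on the same side of 0, with circles nearer to 0 in the mature receptor, NADPH oxidase, MHC class I and chemokine lists, and primary granule proteins fall on opposite sides (-0.76 and 0.53).

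The single genes with the largest fitted differences by ATO included several with a group at 0 reads. AQP9 had 27.8 ± 8.99 CPM with both drugs, 0.492 ± 0.0814 CPM with ATO, 26.0 ± 2.17 CPM with ATRA (SD, n = 3 each) and 0 reads untreated, so that its fitted difference of -7.34 is not a measured size. P2RY13, a receptor for ADP, had 14.1, 12.2 and 15.4 CPM with both drugs and 0.208, 0.367 and 0.395 CPM with ATO, against 17.6, 19.7 and 16.1 CPM with ATRA and 0 reads untreated. PTPN3, a tyrosine phosphatase gene, had 2.30, 2.51 and 2.93 CPM with both drugs and 5.90, 6.76 and 6.63 CPM with ATO, against 1.49, 0.686 and 0.796 CPM with ATRA and 50.4, 51.0 and 51.6 CPM untreated, so it fell in both settings and less with ATO (difference 4.37 ± 0.23, adjusted p = 1.3e-11). CHAT, which makes acetylcholine, showed the same order (4.00 ± 0.33). AQP3, a glycerol channel gene, was not called after addition to ATO (0.26 ± 0.29, adjusted p = 0.467) and fell without it (-3.39 ± 0.31). CYP26B1 had 71.9 ± 12.3 CPM with both drugs and 69.6 ± 15.3 CPM with ATRA alone, while the groups without ATRA had 0 reads with ATO and 24 untreated.

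In HL-60 cells the same addition called 4367 genes higher (27.5% of 15895 tested) and 4289 lower (27.0%). With library sizes alone, 39.6% of the HL-60 calls were higher, where TMM scaling gave 50.5%, and the median over all genes shifted by -0.10. Of 5762 genes called in both lines, 65.8% of the NB4 calls among genes tested in both and 71.2% of the HL-60 calls, 4481 (77.8%) had the same sign, while 569 rose in NB4 and fell in HL-60 cells and 712 fell in NB4 and rose in HL-60 cells. A test of the difference between the lines over all 24 libraries called 3669 of 17930 genes higher (20.5%) and 3559 lower (19.8%) in NB4 cells. This comparison sets an APL line beside a single line that is not APL, so line and disease type cannot be told apart.

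Ribosome biogenesis genes differed between the lines. In NB4 cells all 35 genes fell, and in HL-60 cells 17 fell and 6 rose (medians -1.07 and -0.12), and for all 35 the difference was called lower in NB4 cells. NOLC1 had 392 ± 9.56 CPM in the HL-60 combination libraries and 478 ± 3.85 CPM in the HL-60 ATO libraries (SD, n = 3 each), a difference between lines of -0.997 ± 0.067 (adjusted p = 1.99e-13). Heat shock genes differed in the same direction, with medians of -0.77 in NB4 and 0.011 in HL-60 cells and 11 of 14 differences called lower, as did the unfolded protein response (-0.49 and 0.19, 15 of 20 lower) and translation factors (12 of 19 lower). Interferon-stimulated genes went further up in NB4 cells, with medians of 2.02 and 0.39 and 33 of 46 differences called higher and 0 lower. OAS3 had 29.04 ± 1.44 CPM in the HL-60 combination libraries and 15.2 ± 0.43 CPM in the HL-60 ATO libraries, and differed between lines by 1.61 ± 0.15. Primary granule genes had medians of -0.76 in NB4 and -2.41 in HL-60 cells, with 10 of 14 differences called higher and 0 lower. Medians were 2.40 and 1.08 for mature receptors (19 of 32 differences higher, 3 lower) and 2.20 and 0.65 for adhesion genes (11 of 18 higher, 3 lower). Stem and leukaemia-associated genes had medians of -0.37 and -2.08 (8 of 17 differences higher, 2 lower).

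Repair and replication lists held differences between the lines in both directions. Over all tested genes, 20.5% of differences were called higher in NB4 cells and 19.8% lower. In HL-60 cells 27.5% of all tested genes rose and 27.0% fell. Mismatch repair had medians of -0.49 in NB4 and -0.50 in HL-60 cells, with 12 of 15 genes lower in HL-60 cells. DNA replication genes had a median of -0.41 in NB4 cells and -0.65 in HL-60 cells (37 of 38 lower), and 19 of 38 differences were called higher in NB4 cells and 4 lower. For homologous recombination the HL-60 median was -0.30 with 20 of 30 lower, and for checkpoint signalling -0.32 with 16 of 25. In nucleotide excision repair 3 of 22 genes fell and 5 rose in HL-60 cells, with 9 of 22 differences called lower and 5 higher. PARP1 had 340.1 ± 7.81 CPM in the HL-60 combination libraries and 632 ± 10.2 CPM in the HL-60 ATO libraries, a slightly larger fall than in NB4 cells (difference 0.17 ± 0.065, adjusted p = 0.0374).

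Oxidative and metal stress genes differed between the lines. HMOX1 had 912 ± 93.0 CPM in the HL-60 combination libraries and 76.6 ± 8.03 CPM in the HL-60 ATO libraries (3.58 ± 0.077), a larger rise than in NB4 cells (difference -2.64 ± 0.14). GCLM rose in HL-60 cells (1.00 ± 0.064) and fell in NB4 cells (difference -1.49 ± 0.10, adjusted p = 1.22e-13), and of 28 NRF2 target genes 21 rose in HL-60 cells, with 19 differences called lower in NB4 cells and 3 higher. MT2A fell in HL-60 cells, with 21.3, 33.0 and 24.4 CPM in the combination libraries and 78.3, 82.8 and 82.9 CPM in the ATO libraries, and all 5 measured metallothionein genes fell there. CDKN1A rose far more in NB4 cells (difference 3.90 ± 0.35), and MPO fell further in HL-60 cells (-3.97 ± 0.075, difference 2.13 ± 0.11). TGM2, at 2611 ± 244 CPM in the HL-60 combination libraries and 0.0817 ± 0.0727 CPM in the HL-60 ATO libraries, rose in both lines.

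**Figure D5:**
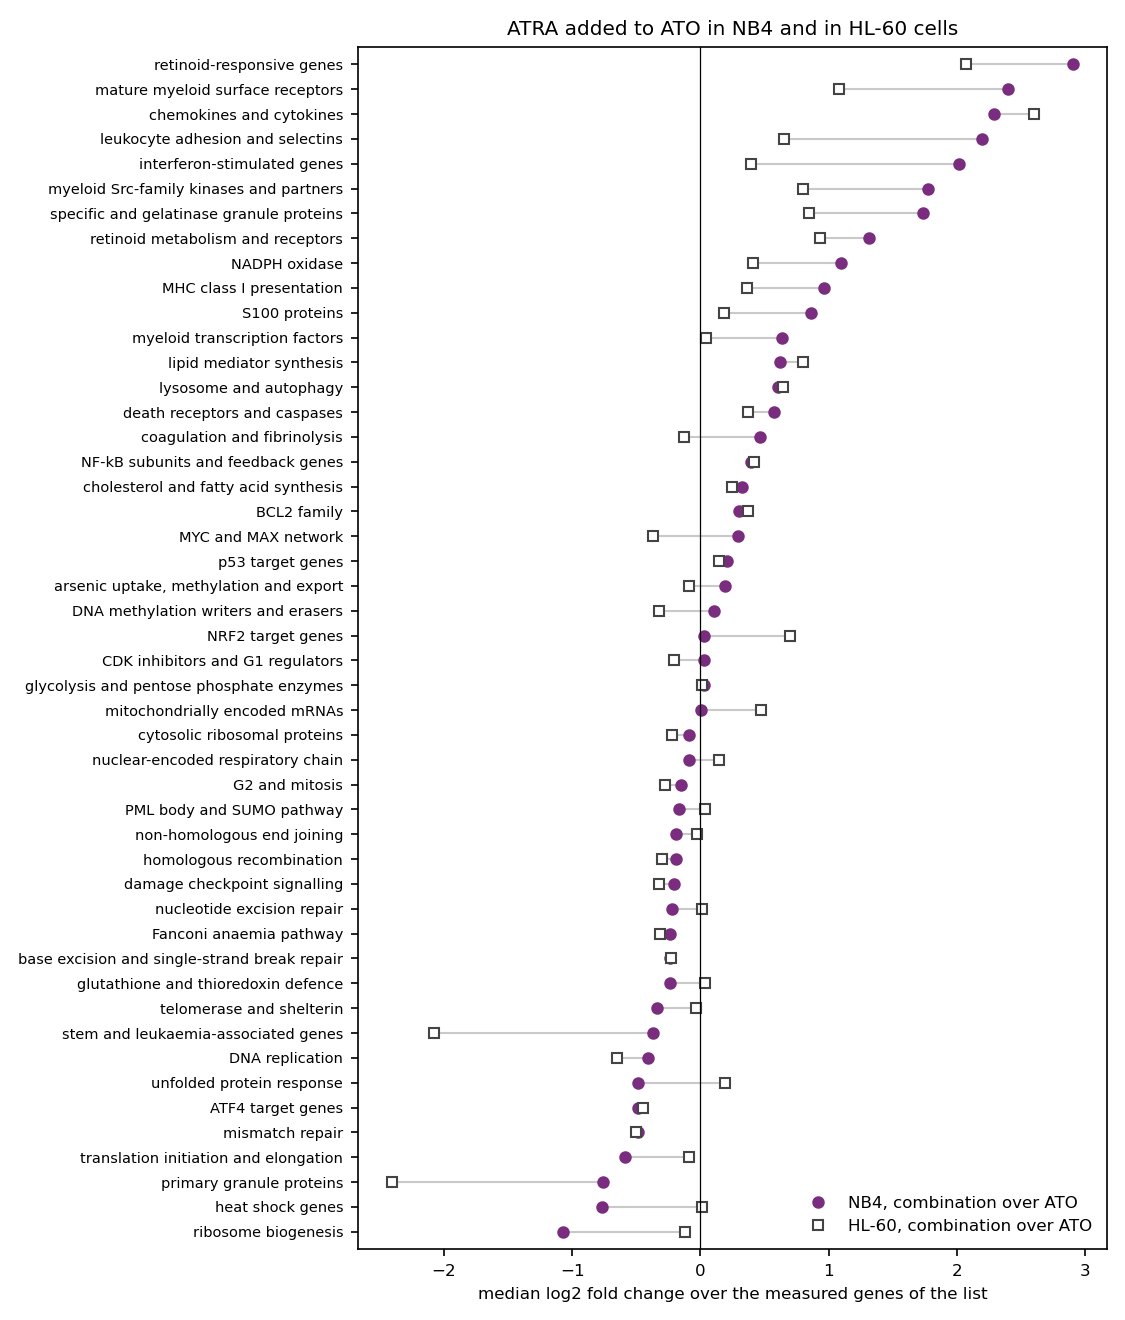
Median log2 fold change (combination over ATO) of each list of 5 or more genes measured in both lines, in NB4 cells (filled circles) and HL-60 cells (open squares). Stem and leukaemia-associated, primary granule, interferon, adhesion and mature receptor lists are far apart, and ribosome biogenesis, heat shock and unfolded protein response lists less so. NRF2 targets are higher in HL-60 cells (0.031 in NB4 and 0.70 in HL-60 cells), and mismatch repair medians are close (-0.49 and -0.50).

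Markers of other blood cells moved with the comparison in part. The 13 monocyte and macrophage markers summed to 41.3 to 59.4 CPM in the combination libraries and 6.81 to 8.37 CPM in the ATO libraries, all 6 that could be tested rose (median 3.18, or 2.44 with a member of 0 reads at its bound), and MRC1, MSR1 and C1QB were at 0 in the combination libraries. CSF1R had 14.9, 17.0 and 19.6 CPM against 3.57, 3.23 and 3.71 CPM. The 13 lymphoid markers summed to 162 to 182 CPM in the combination libraries and 95.6 to 104.7 CPM in the ATO libraries, and 4 of 8 measured rose and 2 fell, led by CD79A (2.24 ± 0.11) and with CD5, MS4A1 and PAX5 at 0 in the combination libraries. The 10 megakaryocyte and platelet markers summed to 20.0 to 23.2 CPM in the combination libraries and 9.41 to 14.1 CPM in the ATO libraries, with GP9 and PF4 at 0, and the 12 erythroid markers to 10.8 to 12.5 CPM and 12.7 to 13.9 CPM, with all 5 globin genes listed at 0. The part of these markers in the maturation, chemokine and receptor results was not tested.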

How the data were processed

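RNA was sequenced from 24 libraries (8 groups of 3). The authors deposited a table of raw gene counts; per the submitters' processing notes the tools were fastp, HISAT2, featureCounts and DESeq2 with the build GRCh38. Not given in the sources used here: tool versions, the annotation release, strandedness, and the counting of reads or of fragments. Of the counts of 1 to 9, 74.4% were even, and 51.5% of those of 500 or more, so halved counts were an alternative. Without strand information, reads of a gene and an overlapping or antisense gene cannot be told apart.

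Counts were tested with edgeR 4.0.16 (R 4.3.3) by the quasi-likelihood test after its default filter on low counts and TMM scaling, in 1 fit of the 12 NB4 libraries, 1 of the 12 HL-60 libraries and 1 of all 24, with Benjamini-Hochberg adjustment over all genes tested. DESeq2 1.42.0 was an alternative. Replicates differed by more than sampling noise (chi-square per degree of freedom 5.74 to 16.99 in the groups compared), so no library was counted as a duplicate. A count is worth 0.0198 to 0.0231 CPM, and intervals and floors cover counting error only.

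The labels call the replicate numbers batches, which pairs them; the correlations of residuals of same-numbered NB4 libraries were -0.081 to 0.038 (18 pairs), and -0.011 to -0.0016 in the 3 pairs of combination and ATO libraries. The fit has no block, and the fit with it was an alternative. Named genes were the 10 top rises and 10 top falls among called protein-coding genes averaging 5 CPM or more in one of the groups and moving one way in all 3 batches, the 5 largest in each direction for both differences, the 4 members of each list with the smallest p, and a panel; other genes printed were chosen after their values were seen. Some of the genes so named are not reported here. The comparison and the 54 gene lists, some of whose genes stand in several lists, were chosen with earlier results of these data known. Gene positions are from GENCODE 29, and start regions from RefSeq (GRCh38.p14), searched on both strands.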

Additional observations from a re-analysis of the deposited data

Results flagged for a closer look

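For 23 genes named by the rules, the change on addition of ATRA differed between NB4 cells with and without ATO by a test of that difference (adjusted p below 0.05, edgeR). On the log2 scale, with ATO minus without ATO, the positive differences were 6.12 for CYP26B1, 4.37 for PTPN3, 4.18 for THSD7A, 4.00 for CHAT, 3.66 for AQP3, 2.92 for MT2A, 0.46 for ATM and 0.23 for CD38. Negative differences were -8.60 for TNFSF15, -7.42 for KIAA1755, -7.34 for AQP9, -7.19 for P2RY13, -6.26 for DAW1, -4.63 for NCF1, -3.64 for PRAM1, -2.98 for ASB2, -2.55 for ICAM1, -1.59 for HMOX1, -1.23 for ITGAM, -0.96 for MPO, -0.73 for CEBPE, -0.55 for MYC and -0.38 for PML. CYP26B1 had no read with ATO, and TNFSF15, KIAA1755, AQP9, P2RY13 and DAW1 had none untreated, so their fitted differences are not measured sizes.

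For 27 genes the change of the combination against ATO differed between the lines by the same kind of test. NB4 minus HL-60, the positive differences were 11.32 for MPEG1, 8.55 for SULF2, 8.36 for NAPSA, 8.15 for FAM184A, 7.67 for XAF1, 3.90 for CDKN1A, 2.68 for TGM2, 2.41 for ITGAM, 2.13 for MPO, 1.96 for MT2A, 1.68 for NCF1, 1.12 for ICAM1, 1.04 for ASB2, 0.78 for PRAM1, 0.66 for RARA, 0.60 for PML, 0.44 for ATM and 0.17 for PARP1. Negative differences were -6.57 for EMILIN2, -6.05 for LGALS8, -5.21 for MMP1, -4.71 for APOE, -4.44 for GOLGA7B, -2.64 for HMOX1, -1.49 for GCLM, -0.66 for MYC and -0.43 for CD38. MPEG1, NAPSA and FAM184A had no read in the NB4 ATO libraries and LGALS8 none in the NB4 combination libraries, so their fitted differences are not measured sizes either.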

How the results depend on the processing

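The NB4 combination called 9312 genes against ATO, and between 8672 and 9650 under DESeq2 (9404), its size factors (9287), library sizes alone (9302), a minimum of 1 read (9248) or 1 CPM (8672), halved counts (9209), only the groups compared (9650) and all 24 libraries (9340). With the batch numbers as a replicate block it called 9127, and among the named genes the block changed the calls of MT-CYB and MT-ND6 only. Leaving out a library gave 8574 to 8794 calls, 9197 to 9790 for ATRA alone, 2399 to 4305 for the difference by ATO (3056 with all libraries), 7911 to 8911 in HL-60 cells and 6711 to 7260 for the difference between lines. For NB4 combination against ATO, 233 named genes were followed through these settings. Those called kept their sign, and 3 that were not called changed it: APOE (0.52) ranged from -0.28 without combination replicate 2 to 0.82 with another library left out, BRCA1 (0.025) was -0.0023 with library sizes alone and -0.058 without combination replicate 1 (up to 0.078 with another library left out), and GATA1 (-0.021) was 0.0040 with DESeq2 or its size factors, 0.016 with a minimum of 1 CPM, 0.015 and 0.065 without combination replicate 2 and 3, and 0.014 without ATO replicate 1 (lowest -0.14, without combination replicate 1). The cause was not tested. Depth limits genes at 0 reads, whose folds are lower bounds.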
